A study of Mus musculus with 6 samples.

Results

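The 10 genes described here encode the machinery that copies, transcribes and looks after the products of mitochondrial DNA (mtDNA). They are *Tfam*, *Tfb1m*, *Tfb2m*, *Polrmt*, *Polg*, *Twnk*, *Nrf1*, *Gabpa*, *Supv3l1* and *Lrpprc*, chosen by gene symbol from a table of 55491 genes. All 10 were measured with 10 counts or more in each of the libraries, as were 18905 genes in all. RNA came from the inguinal white adipose tissue (IWAT) of male C57BL/6J mice at 4 weeks of age, 3 of them wild type (*Ebf2*+/+) and 3 heterozygous for a nonsense allele of *Ebf2* (*Ebf2* E165X/+). The allele was knocked in by CRISPR/Cas9 and is not limited to adipocytes. Each mouse gave 1 library of 106820505 to 135039488 counts. EBF2 is a transcription factor of adipocyte precursors and of brown and beige fat.

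Mitochondria keep a small circular genome of their own, which encodes core subunits of the respiratory chain together with the ribosomal and transfer RNAs needed to make them. Everything that acts on this genome is encoded in the nucleus and imported: a polymerase and its cofactors start transcription, a separate polymerase and helicase copy the DNA, and RNA-binding proteins and nucleases set how long the transcripts last. Fat that makes heat is rich in mitochondria, and the nuclear factors NRF1 and GABP (of which *Gabpa* encodes the DNA-binding subunit) are known to act on promoters of many genes of this machinery.

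Promoter sequences of all 10 genes were found in RefSeq (GRCm38.p6; 250 bases before to 50 after each start, 12 windows because *Twnk* and *Nrf1* have 2 starts each). They were searched on both strands for the core of the NRF-1 motif, GCGCATGC or its reverse complement GCATGCGC, and for the core of the GABP motif, CCGGAAGT or ACTTCCGG. The NRF-1 core was in 2.71% of all 32851 promoter windows and the GABP core in 3.89%, with 6.34% holding either. By gene, 1907 of 27025 genes (7.06%) held either in a window, as did 5 of the 10 genes, in 5 of their 12 windows. The stretches around these matches are shown because NRF1 and GABP are themselves among the 10 genes, with the match in capitals and every sequence 5′ to 3′ on the strand of the gene.
*Tfam*, GABP core, chr10:71238058-71238117, minus strand: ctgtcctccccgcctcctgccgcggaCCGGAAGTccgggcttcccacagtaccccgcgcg
*Polg*, GABP core, chr7:79466278-79466337, minus strand: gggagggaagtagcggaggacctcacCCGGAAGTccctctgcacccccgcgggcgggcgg
*Twnk*, the second start, GABP core, chr19:45006421-45006480, plus strand: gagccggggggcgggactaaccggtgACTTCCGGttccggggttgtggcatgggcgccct
*Polrmt*, NRF-1 core, chr10:79746681-79746740, minus strand: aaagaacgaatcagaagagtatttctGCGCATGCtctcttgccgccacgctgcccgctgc
*Tfb2m*, NRF-1 core, chr1:179546230-179546289, minus strand: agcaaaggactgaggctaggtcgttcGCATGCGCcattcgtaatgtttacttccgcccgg
The windows of *Tfb1m*, *Nrf1*, *Gabpa*, *Supv3l1* and *Lrpprc* held neither run of letters. For *Supv3l1* and *Lrpprc*, the 2 genes with the lowest fold changes, the sequence from 90 bases before to 50 bases after the start is shown for comparison, with no letters to capitalise.
*Supv3l1*, chr10:62449689-62449828, minus strand: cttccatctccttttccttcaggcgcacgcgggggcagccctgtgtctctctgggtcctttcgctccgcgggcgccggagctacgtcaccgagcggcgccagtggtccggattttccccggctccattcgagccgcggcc
*Lrpprc*, chr17:84790737-84790876, minus strand: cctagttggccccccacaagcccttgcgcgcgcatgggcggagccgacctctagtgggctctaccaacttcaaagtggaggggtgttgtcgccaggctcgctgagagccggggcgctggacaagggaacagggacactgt
A match is only a run of letters in a window. Of the 94 other nuclear genes of the pathway described further on, 81 had a promoter window, and 19 of these held a match.

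The level of this machinery in IWAT was close between the genotypes, with *Supv3l1* as the 1 gene lower in every *Ebf2* E165X/+ mouse than in any *Ebf2*+/+ mouse. Levels are given as CPM, the count per 1000000 counts of the library after scaling by the TMM method, and fold changes as log2 of *Ebf2* E165X/+ over *Ebf2*+/+ mice. No gene of the 10 passed an adjusted *P* of 0.05 in edgeR's quasi-likelihood test, which called 0.00918% of the 32664 genes tested. At an unadjusted *P* under 0.05 the test had 1 of the 10 lower, *Supv3l1*, against 3.09% of all genes, and 0 higher, against 1.68%. DESeq2 with independent filtering called *Supv3l1* lower, where it called 1.07% of genes lower, and without that filtering it called none of the 10. Log2 fold changes were below 0 for 7 of the 10 genes, with a median of −0.04. The median was 0.01 over all genes tested and 0.03 over the 18905 genes with 10 counts or more throughout. With a mouse left out, 4 to 8 of the 10 genes were below 0, and the median of the 10 ran from −0.099 to 0.0054. All 3 *Ebf2* E165X/+ mice lay below all 3 *Ebf2*+/+ mice for 1 gene of the 10, as for 6.78% of genes with at least 10 counts, and above them for 1 gene (*Nrf1*), as for 6.66%.

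**Figure D1:**
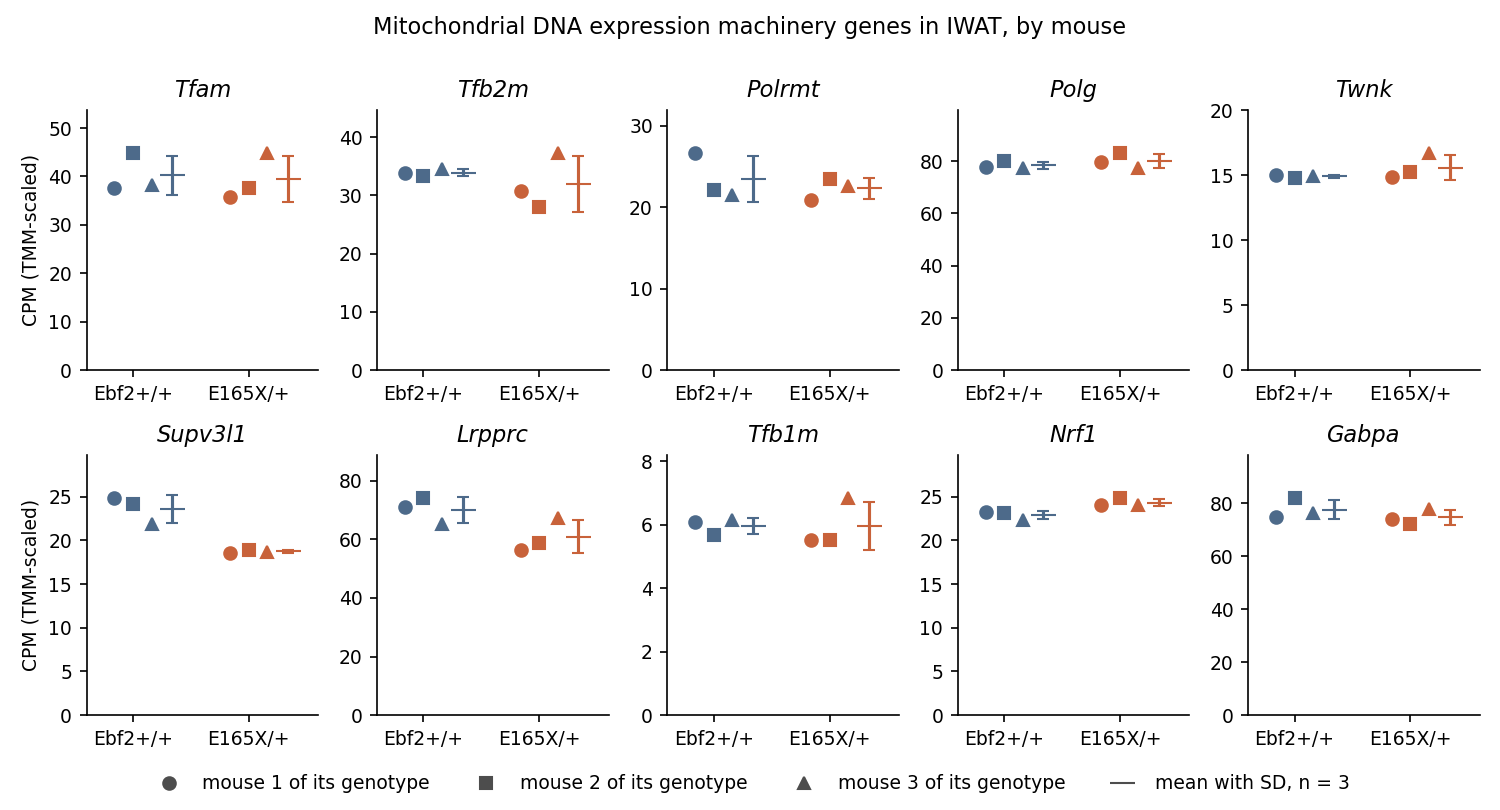
Level of each of the 10 genes by mouse, in TMM-scaled CPM on a linear axis from 0, for 3 *Ebf2*+/+ mice (blue) and 3 *Ebf2* E165X/+ mice (orange); symbols mark the mouse, and the bar beside them is the mean with the SD (n = 3). *Supv3l1* separates the genotypes downwards and *Nrf1* narrowly upwards, and the third *Ebf2* E165X/+ mouse (triangle) stands above the others of its genotype for *Tfam*, *Tfb2m*, *Lrpprc*, *Tfb1m*, *Twnk* and *Gabpa*.

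Before the single genes, the state of the libraries has to be given. *Ebf2* itself had 38.3, 41.3 and 37.2 CPM in *Ebf2*+/+ mice and 22.8, 22.9 and 21.1 CPM in *Ebf2* E165X/+ mice, so that the genotypes were clearly separate, as labelled. The fold change of *Ebf2* was −0.81 (SE 0.076), with an adjusted *P* of 0.0596 from edgeR, 0.0423 from edgeR without the third *Ebf2* E165X/+ mouse, and 1.23e-13 from DESeq2. Markers of white adipocytes, such as *Adipoq* and *Fabp4*, were present throughout, with a summed share of 0.583% for the third *Ebf2* E165X/+ mouse and of 0.862% to 1.11% for the rest. All 6 of these markers had fold changes below 0, with a median of −0.28, and all 6 lymphocyte markers had fold changes above 0, with a median of 0.25, although none passed an adjusted *P* of 0.05 in edgeR. Their part in the values of the machinery and of mtDNA-encoded genes was not tested. Skeletal muscle is not part of IWAT but lies close to it. All 8 of its markers on the list had counts in every library, with *Myh4*, a fast myosin heavy chain, the most abundant. Together they took 0.158%, 0.671% and 0.259% of the counts in *Ebf2*+/+ mice and 0.295%, 0.0706% and 3.69% in *Ebf2* E165X/+ mice. The third *Ebf2* E165X/+ library therefore held more muscle marker RNA than any other library, and the second *Ebf2*+/+ library held the next most. A gene annotated as related to 18S ribosomal RNA reached 1.67% of all counts for the third *Ebf2*+/+ mouse, where the rest had 0.157% to 0.387%. As these are bulk samples, fewer cells of a type and less RNA per cell cannot be told apart anywhere in these data.

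Transcription of mtDNA is started by POLRMT, the mitochondrial RNA polymerase, together with TFAM, which also packs the DNA, and TFB2M, which opens the promoter. *Tfam* (ENSMUSG00000003923; GRCm38 chr10:71225464-71238280) had 37.7, 44.8 and 38.2 CPM in *Ebf2*+/+ mice and 35.9, 37.6 and 44.8 CPM in *Ebf2* E165X/+ mice. Its highest values were those of the second *Ebf2*+/+ and the third *Ebf2* E165X/+ mouse, the 2 libraries with the most muscle marker counts, and the genotypes overlapped throughout. The fold change was −0.03 (SE 0.11, 95% confidence interval −0.28 to 0.23, edgeR adjusted *P* = 0.959). *Tfb2m* (ENSMUSG00000026492; chr1:179528055-179546267) had 33.9, 33.3 and 34.5 CPM in *Ebf2*+/+ mice and 30.7, 28.0 and 37.3 CPM in *Ebf2* E165X/+ mice. Thus 2 of the *Ebf2* E165X/+ mice were below and 1 was above all *Ebf2*+/+ mice. The fold change of *Tfb2m* was −0.08 (SE 0.11, interval −0.34 to 0.17, adjusted *P* = 0.839 from edgeR). For *Polrmt* (ENSMUSG00000020329; chr10:79736123-79746581), the values were 26.6, 22.1 and 21.5 CPM in *Ebf2*+/+ mice and 20.9, 23.5 and 22.6 CPM in *Ebf2* E165X/+ mice. Only the first *Ebf2*+/+ mouse stood above the rest, and the fold change was −0.07 (SE 0.11, interval −0.32 to 0.17, edgeR adjusted *P* = 0.867).

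Replication of mtDNA is carried out by POLG, the catalytic subunit of its DNA polymerase, behind the helicase Twinkle, encoded by *Twnk*. *Polg* (ENSMUSG00000039176; chr7:79446231-79466362) had 77.7, 79.9 and 77.5 CPM in *Ebf2*+/+ mice and 79.5, 83.1 and 77.5 CPM in *Ebf2* E165X/+ mice. The 6 values lay within a few CPM of each other, and the confidence interval of the fold change was the narrowest of the 10 (0.03, SE 0.065, interval −0.12 to 0.18, edgeR adjusted *P* = 0.914). *Twnk* (ENSMUSG00000025209; chr19:45005663-45012762) had 15.0, 14.8 and 14.9 CPM in *Ebf2*+/+ mice and 14.8, 15.2 and 16.7 CPM in *Ebf2* E165X/+ mice. The third *Ebf2* E165X/+ mouse was the highest, and the fold change was 0.06 (SE 0.089, interval −0.14 to 0.27, edgeR adjusted *P* = 0.852). Exons of *Twnk* overlap those of *Mrpl43*, a mitochondrial ribosomal protein gene on the opposite strand, over 507 bases, and exons of *Polg* overlap *Fanci* over 921 bases. *Mrpl43* had 2955.2 counts on average beside 1828.3 for *Twnk*, and *Fanci* had 570.2 beside 9478.2 for *Polg*. Whether the counting used strand is not given in the sources used here, so reads from these stretches may be shared.

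The fate of mitochondrial RNA depends on SUPV3L1, a helicase that unwinds RNA for degradation by polynucleotide phosphorylase, and on LRPPRC, which with SLIRP binds and stabilises mitochondrial messenger RNAs. *Supv3l1* (ENSMUSG00000020079; chr10:62429209-62449738) had 24.8, 24.1 and 21.8 CPM in *Ebf2*+/+ mice and 18.6, 18.9 and 18.7 CPM in *Ebf2* E165X/+ mice. The genotypes did not overlap, and the *Ebf2* E165X/+ values were nearly the same in all 3 mice, the muscle-rich library included. Its mean was 23.6 ± 1.57 CPM in *Ebf2*+/+ mice and 18.8 ± 0.167 CPM in *Ebf2* E165X/+ mice (SD, n = 3 each), a fold change of −0.33 (SE 0.082, interval −0.52 to −0.14). The unadjusted *P* was 0.00416 and the edgeR adjusted *P* was 0.783, while DESeq2 gave an adjusted *P* of 0.0440 with independent filtering and 0.0843 without it. *Supv3l1* is also among the genes that the study picked for display from these mice, so the difference is not independent evidence. Its exons overlap those of *4930507D05Rik* on the opposite strand over 250 bases, an entry with 15.7 counts on average beside 2525 for *Supv3l1*.

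*Lrpprc* (ENSMUSG00000024120; chr17:84705247-84790789) had 70.9, 74.0 and 65.1 CPM in *Ebf2*+/+ mice and 56.5, 58.9 and 67.1 CPM in *Ebf2* E165X/+ mice. The first and second *Ebf2* E165X/+ mice were below all *Ebf2*+/+ mice, and the third was above the lowest of them. With a mean of 70.0 ± 4.49 CPM against 60.8 ± 5.59 CPM (SD, n = 3 each), the fold change was −0.20 (SE 0.089, interval −0.41 to 0.0057), with an unadjusted *P* of 0.0551 and an adjusted *P* of 0.783 from edgeR. *Tfb1m* encodes a relative of TFB2M that methylates the small ribosomal RNA of mitochondria. *Tfb1m* (ENSMUSG00000036983; chr17:3519256-3557781) had 6.07, 5.67 and 6.13 CPM in *Ebf2*+/+ mice and 5.51, 5.52 and 6.83 CPM in *Ebf2* E165X/+ mice, which again placed the first and second *Ebf2* E165X/+ mice at the bottom and the third at the top. The genotype means were alike (fold change −0.0010, SE 0.14, interval −0.33 to 0.33, edgeR adjusted *P* = 0.998). Exons of *Tfb1m* overlap those of Tiam2 on the opposite strand over 142 bases, and Tiam2 had 702.0 counts on average beside 714.8 for *Tfb1m*, so that shared reads could matter here.

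The regulators NRF1 and GABPA are nuclear transcription factors. *Nrf1*, nuclear respiratory factor 1 (ENSMUSG00000058440; chr6:30047988-30153458), had 23.2, 23.1 and 22.4 CPM in *Ebf2*+/+ mice and 24.1, 24.8 and 24.1 CPM in *Ebf2* E165X/+ mice. Every *Ebf2* E165X/+ mouse was above every *Ebf2*+/+ mouse, but by a small margin that did not pass the test (fold change 0.09, SE 0.069, interval −0.07 to 0.25, unadjusted *P* = 0.243, edgeR adjusted *P* = 0.783). *Gabpa* (ENSMUSG00000008976; chr16:84834925-84863779) had 74.7, 81.8 and 76.1 CPM in *Ebf2*+/+ mice and 73.9, 72.3 and 77.7 CPM in *Ebf2* E165X/+ mice, with overlap between the genotypes. Its fold change was −0.06 (SE 0.071, interval −0.22 to 0.11, edgeR adjusted *P* = 0.835). Over 397 bases its exons overlap those of *Atp5j*, an ATP synthase gene on the opposite strand. *Atp5j* had 16456.7 counts on average beside 9094.3 for *Gabpa*, so that shared reads could matter here too. The 5 genes with a motif match in a promoter window had a median fold change of −0.03 and the 5 without had −0.06. For the 94 other nuclear genes, the median was −0.10 in the 19 with a match and −0.08 in the 62 with a window but no match.

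**Figure D2:**
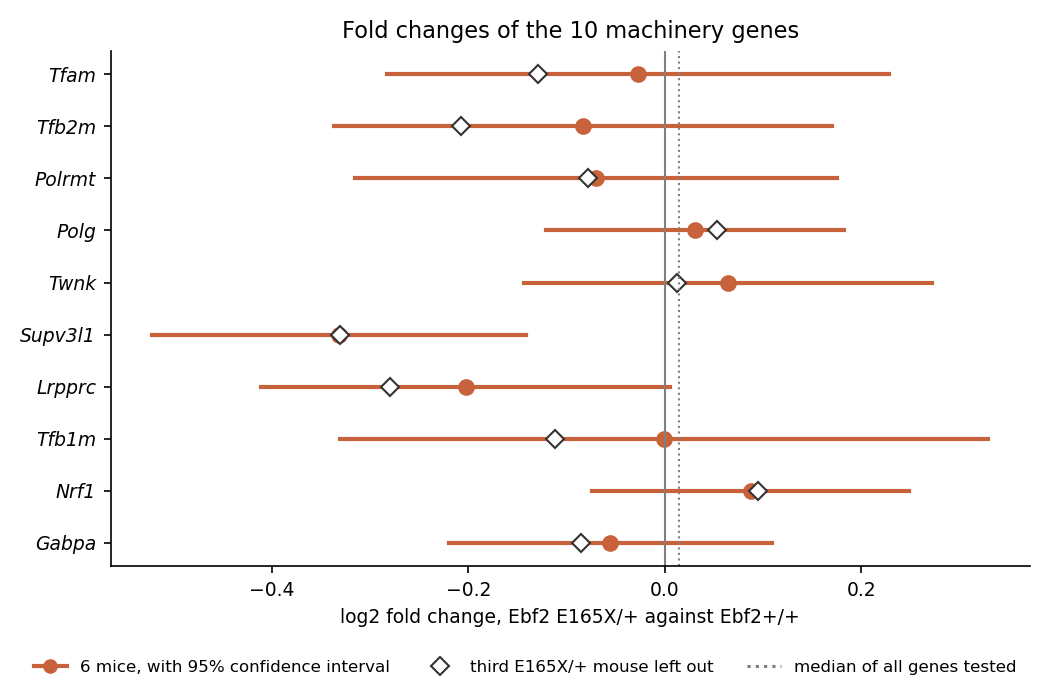
Log2 fold change of *Ebf2* E165X/+ against *Ebf2*+/+ mice for the 10 genes, with 95% confidence intervals from edgeR over 6 mice (filled points) and the estimate with the third *Ebf2* E165X/+ mouse left out (open diamonds); the dotted line is the median of all genes tested. *Supv3l1* is the 1 gene whose interval (−0.52 to −0.14) lies wholly below 0, and *Tfb2m*, *Tfb1m*, *Tfam* and *Lrpprc* move to the left without that mouse.

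On TMM-scaled CPM, the third *Ebf2* E165X/+ mouse, the library with 3.69% muscle marker counts, was above both others of its genotype for 6 of the 10 genes (*Tfam*, *Tfb1m*, *Tfb2m*, *Twnk*, *Gabpa* and *Lrpprc*), between them for *Supv3l1* and *Polrmt*, and below both for *Polg* and *Nrf1*, though level with the first mouse for *Nrf1* (both 24.1 CPM). By count over the library total, without TMM factors, it stayed the highest for *Tfam*, *Tfb1m*, *Tfb2m* and *Lrpprc*. It was then between the others for *Twnk* and the lowest for *Gabpa*, *Supv3l1*, *Polrmt*, *Polg* and *Nrf1*. Averaged over the 10 genes and set against the mean of the *Ebf2*+/+ mice, the log2 CPM was 0.02, 0.02 and −0.04 in *Ebf2*+/+ mice and −0.12, −0.09 and 0.03 in *Ebf2* E165X/+ mice. The first and second *Ebf2* E165X/+ mice were thus below all *Ebf2*+/+ mice, and the third was above them. Leaving out that mouse put 6 of the 10 genes (*Tfam*, *Tfb1m*, *Tfb2m*, *Gabpa*, *Supv3l1* and *Lrpprc*) below all *Ebf2*+/+ mice, where 12.8% of all genes with at least 10 counts lay below, and kept *Nrf1* above. The median fold change of the 10 genes was then −0.10, beside 0.01 over all genes with at least 10 counts. In that fit 3 of the 10 genes were lower at an unadjusted *P* under 0.05, against 3.54% of all genes, namely *Tfb2m* at −0.21, *Lrpprc* at −0.28 and *Supv3l1* at −0.33, and none of the 10 passed an adjusted *P* of 0.05 in edgeR. With the second *Ebf2*+/+ library also left out, these 3 genes had fold changes of −0.22, −0.24 and −0.31 in the same order. The part of muscle RNA in the higher values of this mouse was not tested. *Supv3l1* was as low in this mouse as in the other 2.

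**Figure D3:**
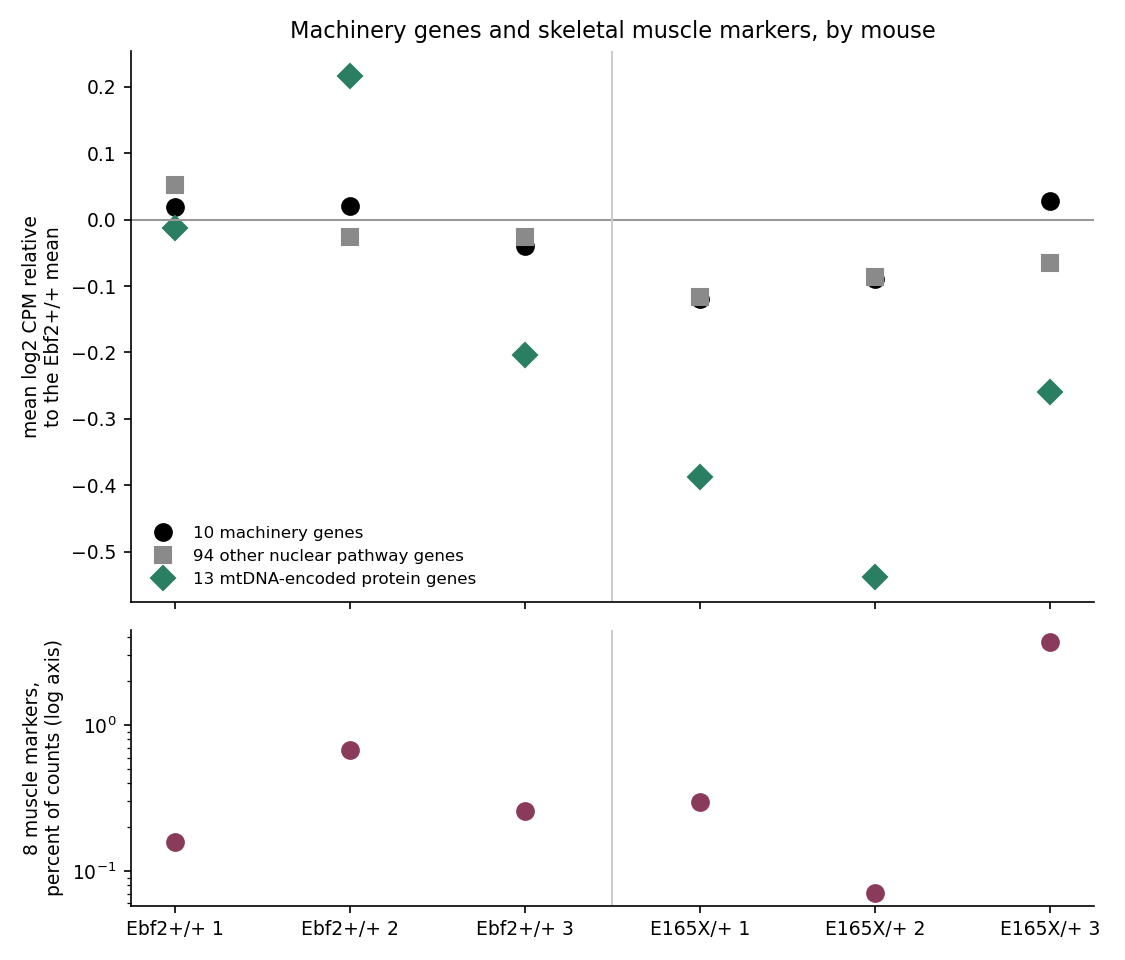
Top, mean log2 CPM relative to the *Ebf2*+/+ mean in each mouse for the 10 machinery genes (black circles), the 94 other nuclear genes of the pathway (grey squares) and the 13 mtDNA-encoded protein genes (green diamonds); bottom, share of counts taken by 8 skeletal muscle markers, in percent on a log axis. The machinery stands at −0.12 and −0.09 in the first and second *Ebf2* E165X/+ mice and at 0.03 in the third, whose muscle share is 3.69%.

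The spread among *Ebf2*+/+ mice differed between the 10 genes. The coefficient of variation over the 3 *Ebf2*+/+ mice ran from 0.717% for *Twnk* to 11.97% for *Polrmt*, where the median of all genes with at least 10 counts was 10.4%. Counting error alone gives 2.40% for *Twnk*, and for *Nrf1*, *Tfb2m* and *Tfb1m* the spread was close to it, so the low values over 3 mice say little about the mice. The 5 genes whose pattern over the 6 libraries was closest to the mean of the machinery were *Bcl7b*, *Gm14421*, *Mapk9*, *Exoc5* and *Psmb1*. They differed from it by 0.0186 to 0.0259 in log2 CPM (root mean square, out of 18895 genes).

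The products of mtDNA had lower values in *Ebf2* E165X/+ mice. All 13 protein genes of mtDNA had a fold change below 0, with a median of −0.34, and in 10 of the 13 every *Ebf2* E165X/+ mouse was below every *Ebf2*+/+ mouse, as in 6.78% of all genes with at least 10 counts. As the 13 genes lie in the same small genome, their values are not independent, and these counts are not 13 separate results. At an unadjusted *P* under 0.05, 3 were lower, against 3.09% of all genes, and 0 higher. These were *mt-Nd3* (−0.43, SE 0.12) and *mt-Nd4l* (−0.72, SE 0.24), which encode complex I subunits, and *mt-Atp8* (−0.64, SE 0.14), which encodes an ATP synthase subunit. None of the 13 passed an adjusted *P* of 0.05 in edgeR. DESeq2 called *mt-Co1* and *mt-Atp8* lower, where it called 1.07% of genes lower. Without the third *Ebf2*+/+ mouse, *mt-Nd6*, *mt-Co2* and *mt-Atp6* also had an unadjusted edgeR *P* under 0.05 (−0.47, −0.56 and −0.39 in that order). Without the third *Ebf2* E165X/+ mouse, *mt-Nd6* had one as well (−0.42). All 13 fold changes were smaller in size, though still below 0, when the second *Ebf2*+/+ mouse was left out (*mt-Co2* −0.27, *mt-Nd6* −0.23). The value for *mt-Nd4l* moved to −0.38 without that mouse, which had 62.3 CPM beside 35.9 and 32.6 CPM in the other *Ebf2*+/+ mice. Its library held the second most muscle marker counts, and their part in these values was not tested. Genes of mtDNA lie end to end, and *mt-Nd4l* and *mt-Atp8* share bases with their neighbours, so counts may be split between them. The 13 genes took 7.87%, 9.18% and 7.49% of all counts in *Ebf2*+/+ mice and 6.85%, 5.90% and 6.61% in *Ebf2* E165X/+ mice. The genotypes did not overlap, with means of 8.18% ± 0.884 and 6.45% ± 0.495 (SD, n = 3; two-sided exact permutation *P* = 0.1, the smallest that 3 mice against 3 can give).

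Ribosomal RNA of mitochondria showed the same direction. *mt-Rnr2*, the large ribosomal RNA, had 3054, 3466 and 4307 CPM in *Ebf2*+/+ mice and 2066, 1641 and 2021 CPM in *Ebf2* E165X/+ mice, without overlap (fold change −0.92, SE 0.20, unadjusted *P* = 0.00247, adjusted *P* = 0.690 from edgeR and 3.29e-06 from DESeq2). *mt-Rnr1*, the small ribosomal RNA, had 793, 1077 and 1858 CPM in *Ebf2*+/+ mice and 706, 620 and 793 CPM in *Ebf2* E165X/+ mice. Here the third *Ebf2*+/+ mouse, the library with the most counts for the gene related to 18S ribosomal RNA, was far above the others. The fold change of *mt-Rnr1* was −0.82 (SE 0.30) and moved to −0.43 without that mouse. The 10 machinery genes together took 0.0376%, 0.0398% and 0.0379% of counts in *Ebf2*+/+ mice and 0.0376%, 0.0391% and 0.0373% in *Ebf2* E165X/+ mice, with overlap (exact permutation *P* = 0.6). This sum is weighted to the abundant genes, as *Polg* had 9478.2 counts on average and *Supv3l1* 2525. It also uses no TMM factors. The mean of the TMM-scaled values stood lower in the first and second *Ebf2* E165X/+ mice (−0.12 and −0.09) than in any *Ebf2*+/+ mouse. Shares are relative to all RNA in a library, and mtDNA copy number was not measured here.

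**Figure D4:**
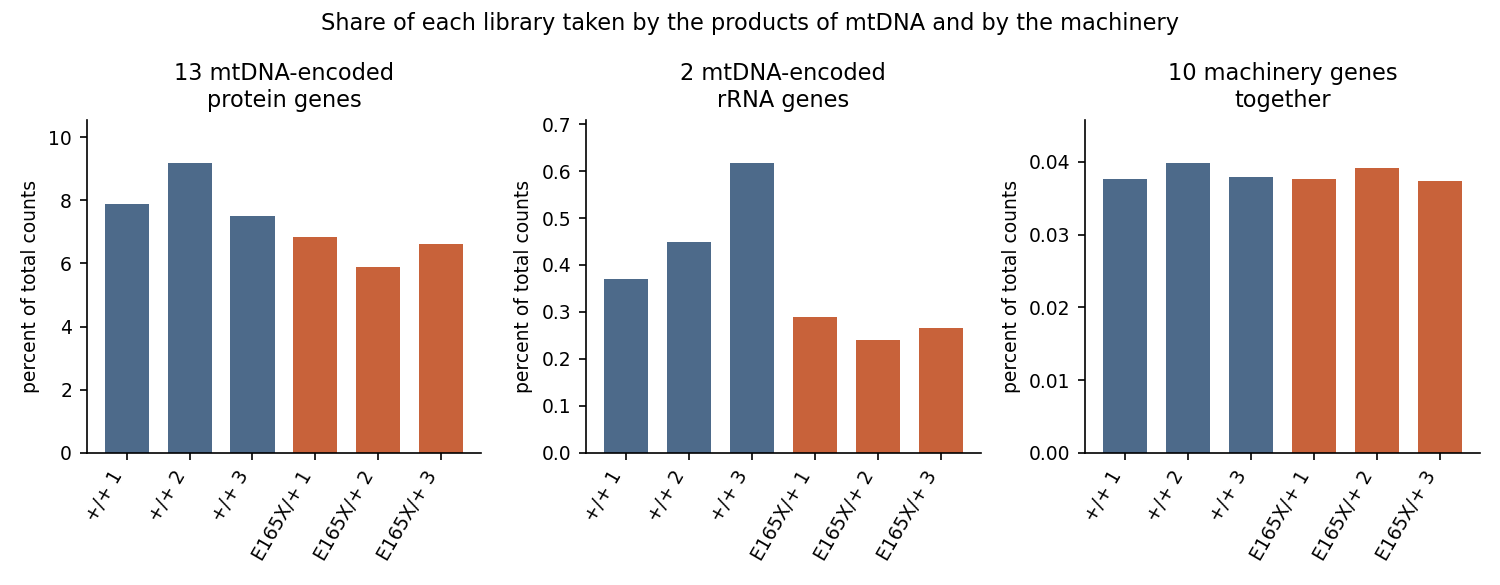
Percent of total counts in each of the 6 libraries taken by the 13 mtDNA-encoded protein genes, the 2 mtDNA-encoded rRNA genes and the 10 machinery genes together, on linear axes from 0 (blue, *Ebf2*+/+; orange, *Ebf2* E165X/+). The mtDNA-encoded protein genes lie at 7.49% to 9.18% in *Ebf2*+/+ mice and 5.90% to 6.85% in *Ebf2* E165X/+ mice, while the machinery genes overlap between 0.0373% and 0.0398%.

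The wider pathway was followed with 94 other nuclear genes in 7 lists. Of these 94 genes, 13 were lower and 1 was higher at an unadjusted *P* under 0.05, where 3.09% and 1.68% of all genes were. In the group, 62 had a fold change below 0, and the median was −0.09. All *Ebf2* E165X/+ mice were below all *Ebf2*+/+ mice for 20 genes and above them for 7, where the shares over all genes with at least 10 counts were 6.78% and 6.66%. None of the 94 passed an adjusted *P* of 0.05 in edgeR, where the lowest was 0.737, for *Hsd17b10*. DESeq2 called 3 of them lower (*Top1mt*, *Hsd17b10* and *Fastkd1*), where it called 1.07% of genes lower.

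Among 15 genes of mtDNA replication and maintenance, the median fold change was 0.02, and 2 were lower at an unadjusted *P* under 0.05. *Top1mt*, the mitochondrial topoisomerase I that relieves supercoiling, had 11.7, 11.5 and 10.2 CPM in *Ebf2*+/+ mice and 8.43, 8.98 and 8.09 CPM in *Ebf2* E165X/+ mice, without overlap (−0.39, SE 0.11). *Mgme1*, a nuclease that trims ends during replication, was at −0.23 (SE 0.091). The 6 further transcription factors (*Tefm* and the *Mterf* genes) had a median of 0.0016 and 0 genes at that *P*, the largest difference being −0.29 for the elongation factor *Tefm* (SE 0.18; −0.17 without the second *Ebf2* E165X/+ mouse and −0.44 without the third *Ebf2*+/+ mouse). The next was −0.09 for *Mterf3*, the product of which represses transcription (−0.13 without the second *Ebf2*+/+ mouse).

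Genes of RNA processing and turnover, the list that *Supv3l1* and *Lrpprc* would join, had 4 of 21 lower and 0 higher at that *P*, 16 below 0 and a median of −0.10. *Hsd17b10*, a subunit of the ribonuclease P complex that cuts transfer RNAs out of the transcript, had 74.5, 65.4 and 68.3 CPM in *Ebf2*+/+ mice and 53.6, 58.3 and 51.2 CPM in *Ebf2* E165X/+ mice (−0.35, SE 0.082). It also degrades branched-chain amino acids, and like *Supv3l1* it was picked by the study for display. *Fastkd1*, an RNA-binding protein of mitochondria, had 20.4, 18.2 and 19.2 CPM against 15.5, 14.3 and 15.4 CPM (−0.35, SE 0.088). Both genes had no overlap between the genotypes. *Lactb2*, an endoribonuclease, was at −0.55 (SE 0.16), and at −0.35 without the first *Ebf2*+/+ mouse, which had 92.3 CPM beside 60.7 and 64.6 CPM in the other *Ebf2*+/+ mice. *Elac2*, which cuts the other end of transfer RNAs, was at −0.16 (SE 0.068).

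Downstream of RNA, *Rpusd3*, a pseudouridine synthase, was the 1 of 16 RNA modification genes lower at an unadjusted *P* under 0.05 (−0.36, SE 0.15). Fold changes were below 0 for 11 of the 16, with a median of −0.15. None of 10 translation factors reached an unadjusted *P* under 0.05, although 9 of the 10 were below 0 and the median was −0.14. The largest differences were in the elongation factors *Gfm1* (−0.24, SE 0.14) and *Tsfm* (−0.18, SE 0.14). Both depended on single mice. *Gfm1* was at −0.39 without the third *Ebf2* E165X/+ mouse and −0.15 without the first, and *Tsfm* at −0.29 without the second *Ebf2* E165X/+ mouse and −0.08 without the first *Ebf2*+/+ mouse. Averaged over the 10 translation factors and set against the *Ebf2*+/+ mice, log2 CPM stood at −0.22, −0.16 and −0.00042 in the 3 *Ebf2* E165X/+ mice. The muscle-rich library thus stood apart under TMM scaling. As shares of all counts, the 10 together took 0.0289%, 0.0303% and 0.0311% in these mice, with the third nearer to the second. Of 17 mitochondrial aminoacyl-tRNA synthetases, which load transfer RNAs with amino acids, 4 were lower and 0 higher at that *P*, with a median of −0.10. *Fars2* (−0.25, SE 0.071), *Iars2* (−0.21, SE 0.078) and *Nars2* (−0.26, SE 0.099) each had all *Ebf2* E165X/+ mice below all *Ebf2*+/+ mice. *Lars2* had 301, 302 and 1609 CPM in *Ebf2*+/+ mice and 289, 299 and 150 CPM in *Ebf2* E165X/+ mice. Its fold change of −1.59 (SE 0.66) rested on the third *Ebf2*+/+ mouse, the library rich in the 18S-related gene, and was −0.32 without it.

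The 9 nuclear regulators other than *Nrf1* and *Gabpa* lay on both sides of a median of 0.05. *Ppargc1b*, a coactivator of mitochondrial biogenesis, had 9.25, 9.41 and 9.30 CPM in *Ebf2*+/+ mice and 5.82, 7.35 and 7.52 CPM in *Ebf2* E165X/+ mice (−0.43, SE 0.13). *Esrra*, the nuclear receptor that works with it, was at −0.29 (SE 0.11) with overlap. *Pprc1*, the related coactivator PRC, had 30.9, 34.3 and 31.0 CPM against 36.5, 39.5 and 38.2 CPM (0.25, SE 0.074). It was the 1 gene of the 94 that was higher at an unadjusted *P* under 0.05, and its edgeR *P* was 0.064 without the third *Ebf2*+/+ mouse. *Ppargc1a* overlapped between the genotypes (−0.11, SE 0.22), with a value of −0.36 without the third *Ebf2* E165X/+ mouse and of 0.0079 without the first. Markers of brown and beige fat are given beside these genes. *Cidea*, a lipid droplet protein of thermogenic fat, had 82.4, 102.5 and 105.8 CPM in *Ebf2*+/+ mice and 7.97, 9.61 and 13.2 CPM in *Ebf2* E165X/+ mice (−3.24, SE 0.18, edgeR adjusted *P* = 0.00462). *Ucp1*, the uncoupling protein, had 10.8, 21.3 and 33.0 CPM in *Ebf2*+/+ mice and 0.259, 0.264 and 0.617 CPM in *Ebf2* E165X/+ mice (−5.83, SE 0.47, edgeR adjusted *P* = 0.0596). The other markers overlapped between the genotypes, with fold changes of −0.90 for *Dio2*, −0.68 for *Cox7a1*, −0.81 for *Cox8b* and −1.69 for *Elovl3*. *Cox7a1* ran from −2.19 without the third *Ebf2* E165X/+ mouse, which had the highest value of all 6 mice, to −0.22 without the second. *Cox8b* was at −1.26 without the third *Ebf2* E165X/+ mouse, and *Elovl3* at −2.98 without the first *Ebf2* E165X/+ mouse. All 6 fold changes were below 0, with summed shares of 0.0138%, 0.0192% and 0.0191% of counts against 0.00298%, 0.00339% and 0.00677%. The part of thermogenic cells in the values of the machinery was not tested.

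**Figure D5:**
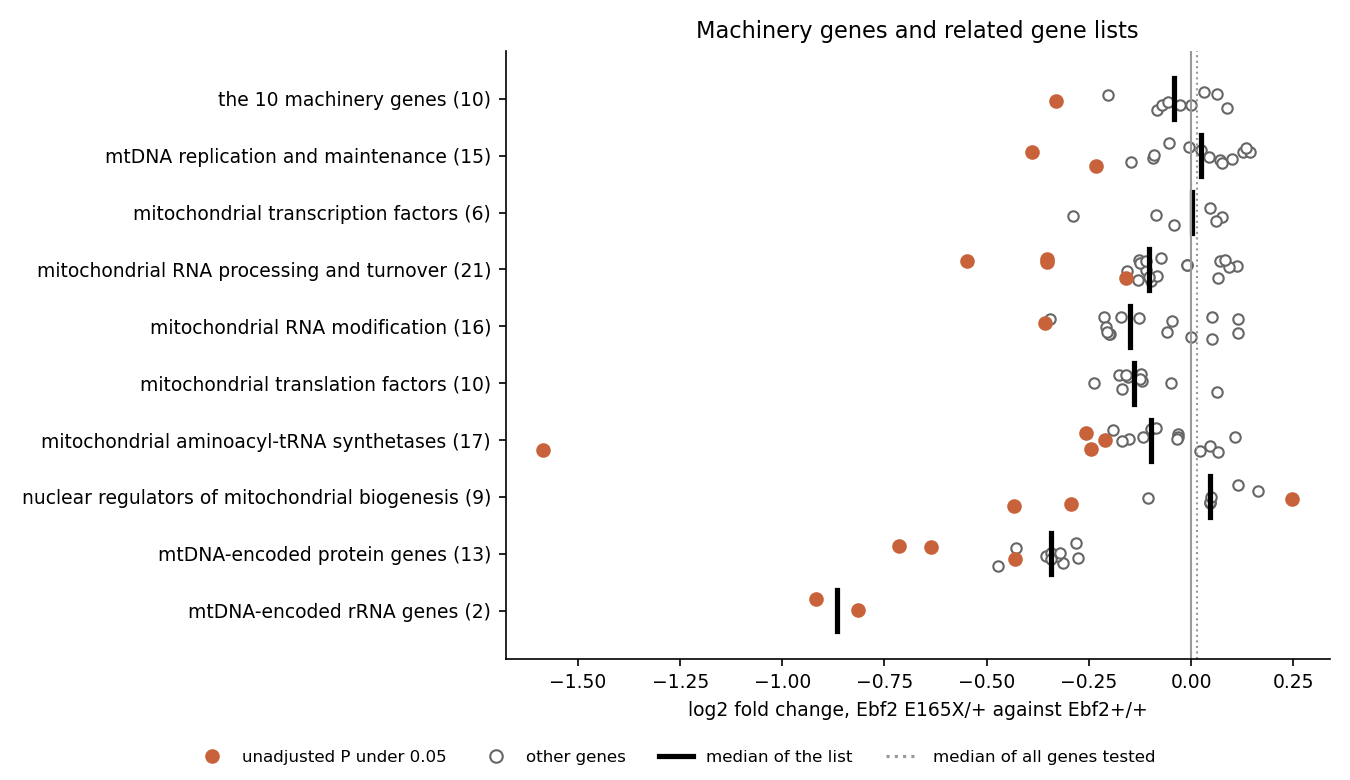
Log2 fold change of *Ebf2* E165X/+ against *Ebf2*+/+ mice for each gene of the machinery and of 9 related lists (number of genes in parentheses), with filled points at an unadjusted *P* under 0.05 and black bars at the median of the list. The 10 machinery genes have a median of −0.04, the mtDNA-encoded protein genes of −0.34, and the point at −1.59 is *Lars2*, which rests on 1 *Ebf2*+/+ mouse.

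Genes of 2 further groups, the proteins of the mitochondrial ribosome and the nuclear subunits of complex I, are known to work with the products of mtDNA. They were added after the data had been seen. Of 77 mitochondrial ribosomal protein genes, 14 were lower and 0 higher at an unadjusted *P* under 0.05, 75 were below 0 and the median was −0.15. Their mean log2 CPM against the *Ebf2*+/+ mice was −0.26, −0.19 and −0.03 in the 3 *Ebf2* E165X/+ mice. Of 35 nuclear complex I genes, 17 were lower and 0 higher at that *P*, 34 were below 0 and the median was −0.30. Their mean was −0.47, −0.46 and −0.07 in the 3 *Ebf2* E165X/+ mice. Over all genes tested, 3.09% were lower and 1.68% higher at that *P*. On TMM-scaled CPM, the third, muscle-rich library stood nearest to the *Ebf2*+/+ mice in both groups. As shares of all counts it did so for complex I (0.229%, 0.232% and 0.273% in the 3 *Ebf2* E165X/+ mice). For the ribosomal proteins it did not (0.194%, 0.2064% and 0.20585%). The machinery genes, with 1 of 10 lower at that *P* and a median of −0.04, lay closer to the median of all genes than either group.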

How the data were processed

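RNA of IWAT was extracted with a column kit and sequenced as 1 library per mouse. The labels name an NEB kit for the libraries and the supplement of the study a 3′ mRNA kit. Levels were therefore not compared between genes, apart from the counts of overlapping genes and the most abundant muscle marker. The authors deposited expected counts, estimated numbers of fragments per gene, not normalized; their processing notes name cutadapt 4.8, FastQC 0.11.8, STAR 2.7.8a, RSEM 1.3.3, MultiQC 1.20 and the build GRCm38. All 332946 values were whole numbers, so that rounding changed none.

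The tests were run in R 4.3.3 with edgeR 4.0.16 (TMM factors 0.949 to 1.06, glmQLFit and glmQLFTest, genotype as the only term) over 32664 genes that had 1 count or more in some library, with Benjamini-Hochberg adjustment over all of them. Standard errors and confidence intervals came from the fitted dispersions, and logarithms of CPM used a prior count of 2. The fits were tested on simulated data. DESeq2 1.42.0, limma-voom 3.58.1, other scalings and filters, a replicate block and each mouse left out in turn were alternatives. Shares of counts were compared by exact permutation in Python 3.11.15. Counting error was 1.05% to 3.79% of the level of a machinery gene, and the number of mice limits precision further. The labels number the samples of a genotype and do not say more of their origin, so *P* values measure the spread between these samples.

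The 10 genes and all lists were chosen with earlier results of these data known. The text names the 10 genes and *Ebf2*, every gene of the 7 nuclear pathway lists and the mtDNA-encoded lists with an unadjusted *P* under 0.05 or, in a list with none, the 2 with the largest change, markers as needed, and the 5 genes most like the mean of the machinery. *mt-Co1*, *mt-Rnr2*, the markers of brown and beige fat, *Ppargc1a*, the 18S-related gene, the mitochondrial ribosomal proteins and complex I were named after their values were seen. Positions are those of GENCODE M21 (GRCm38), which holds 55227 of the 55491 identifiers, and promoters those of RefSeq.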

Additional observations from a re-analysis of the deposited data

How the results depend on the processing

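The fold changes of *Supv3l1*, *Lrpprc*, *Gabpa*, *Twnk* and *Nrf1* kept their sign in all 16 alternatives. Not all of these are separate, as the fit without a count filter repeated the main fold changes and both DESeq2 settings shared theirs. They ran from −0.41 to −0.31 for *Supv3l1*, from −0.28 to −0.15 for *Lrpprc* and from −0.097 to −0.027 for *Gabpa*. For *Twnk* they ran from 0.0063 to 0.099 and for *Nrf1* from 0.048 to 0.10. Those of *Tfam*, *Tfb1m*, *Polg*, *Polrmt* and *Tfb2m* changed sign in 3, 2, 1, 1 and 1 of the fits that left out a mouse (for *Tfam* from −0.13 to 0.04, for *Tfb1m* from −0.11 to 0.05, for *Polg* from −0.00013 to 0.053, for *Polrmt* from −0.15 to 0.017 and for *Tfb2m* from −0.21 to 0.0048). Over all genes, 189 were called by DESeq2 with independent filtering and 157 without it, against 3 in edgeR and 1 to 11 with a mouse left out. DESeq2 with independent filtering called 1 of the 10 genes, *Supv3l1*, and no other alternative called any. With DESeq2 size factors, without mtDNA-encoded genes, and with at least 10 counts in every library, 2 of the 10 had an unadjusted *P* under 0.05, *Supv3l1* and *Lrpprc*, where 4.79%, 4.76% and 6.61% of all genes had one. With a mouse left out this number was 1 to 3, beside 3.27% to 5.45% of all genes, and with both muscle-rich libraries left out, an alternative chosen after seeing the data, it was 3, beside 4.73%. The median of the 10 genes was −0.081 in that last fit and ran from −0.099 to 0.0054 with a mouse left out. Of the 94 other nuclear genes, 8 were lower and 1 higher at an unadjusted *P* under 0.05 with the replicate block. With a mouse left out, 6 to 16 were lower and 0 to 2 higher at that *P*. With CPM of the total count, 4 of the 10 genes did not overlap (*Supv3l1* and *Lrpprc* below, *Nrf1* and *Twnk* above), as for 13% of genes with at least 10 counts, and with a mouse left out 2 to 7 did not, beside 20.9% to 27.3% of genes, the 7 being those without the third *Ebf2* E165X/+ mouse (26.8%). The difference in the share of mtDNA-encoded protein genes ran from −2.07 to −1.23 percentage points, and of mtDNA-encoded rRNA from −0.267 to −0.143, with a mouse left out. Mice of the same number had correlations of 0.15, −0.28 and −0.16. The highest correlation between genotypes, 0.39, was that of the 2 muscle-rich libraries, so such values cannot show whether the numbers pair the mice. Under the replicate block 2 genes were called over all genes in place of 3, while none of the 10 genes was called and their median was −0.04. With 3 mice per genotype, the confidence interval of *Tfb1m* still spans from −0.33 to 0.33, so that changes of this size could not be seen in it.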
